A study of Homo sapiens with 6 samples.

Results

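RECK, 3 tissue inhibitors of metalloproteinases (TIMP1, TIMP2 and TIMP3) and 6 metalloproteases that act at the cell surface or in the matrix (MMP1, MMP2, MMP7, MMP14, ADAM10 and ADAM17) were examined. These are 10 of the 18656 genes measured, and they were taken as the 134 of 257430 probe sets, the exon-sized probe groups of the array, whose annotation names exactly 1 of these symbols. Expression had been measured on 6 arrays (Affymetrix Human Gene 1.0 ST) in AGS, an established human gastric adenocarcinoma cell line. A lipid reagent carried either an anti-miR inhibitor of miR-25-3p (3 arrays) or a non-targeting control RNA (3 arrays) into the cells, and the same transfection was repeated 24 h later. Cells were harvested for total RNA at 48 h from the first transfection, and no group was left untransfected. The labels call the 3 samples of a group biological replicates without saying whether they were separate cultures, and p-values therefore measure only the spread between these samples. The amount of inhibitor is not given in the sources used here, and the mature microRNA was not measured, so its inhibition was not checked.

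Matrix metalloproteinases are zinc enzymes that are made as inactive precursors and cut collagens, laminins and other matrix proteins. TIMPs bind the active site of the mature enzymes. RECK, a glycoprotein anchored in the outer leaflet of the plasma membrane, restrains MMP2, MMP9, MMP14 and ADAM10, and its loss is associated with invasion in many carcinomas. ADAM10 and ADAM17 release growth factors, receptors and adhesion molecules from the cell surface. RECK is a reported target of miR-25 in gastric cancer, so its message was examined first.

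A microRNA finds its targets mainly through its seed, bases 2 to 8. The inhibitor was directed at miR-25-3p, which lies at chr7:100093571-100093592 on the minus strand (GRCh38.p14, RefSeq). The seed is shared by 6 mature microRNAs from 7 genes in the RefSeq table, and all are shown because each could pair with the same sites. The seed is in capitals and sequences run 5′ to 3′.
hsa-miR-25-3p: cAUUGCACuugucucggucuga
hsa-miR-92a-3p: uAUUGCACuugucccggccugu
hsa-miR-92b-3p: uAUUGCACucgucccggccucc
hsa-miR-32-5p: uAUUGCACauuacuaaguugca
hsa-miR-363-3p: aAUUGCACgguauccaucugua
hsa-miR-367-3p: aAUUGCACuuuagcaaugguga
A full seed match in a target reads GUGCAAU. Beyond the seed, miR-92a-3p has the same base as miR-25-3p at 11 of 14 positions and miR-92b-3p at 9 of 14, against 6 for miR-32-5p, 5 for miR-367-3p and 2 for miR-363-3p. Target transcripts were not searched for this match, because transcript sequences were not used here.

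Array values are on the log2 scale after RMA, a background correction, normalization and summary of probes. Pairs of arrays correlated over all genes at 0.991 to 0.995 inside a group and at 0.990 to 0.994 across the groups, and control replicate 1 had the lowest mean correlation with the others, 0.992. All 10 epithelial markers examined lay above the level of silent genes (defined below by olfactory receptor genes), with KRT8, an epithelial keratin, at 12.03 in control arrays and 11.97 in inhibitor arrays. Markers of fibroblasts and endothelium lay on average below the silent level. Their list means by array were 4.03 to 4.17 and 3.95 to 4.09 in the control group. In the inhibitor group they were 4.09 to 4.16 and 3.89 to 3.95. Leukocyte markers averaged above the silent level, at 4.81 to 4.90 in the control group and 4.91 to 5.00 in the inhibitor group. Single markers above it were 4 of 10 for fibroblasts, 2 of 8 for endothelium and 5 of 8 for leukocytes. Single markers differed widely. The leukocyte tyrosine phosphatase PTPRC was at 2.55 in control and 2.62 in inhibitor arrays, near the median of 2.67 for olfactory receptor genes. In the same list LYZ was at 8.84 and 8.79 and CD68 at 6.12 and 6.01. The fibroblast marker COL1A1 was at 6.39 and 6.37. The leukocyte means were higher on every inhibitor array than on any control array, though the nearest pair was at 4.899 and 4.906. Of the 8 leukocyte markers, 4 were higher and 4 lower with the inhibitor, and CD14 rose most, by 0.46. The part of these markers in the results below was not tested.

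None of the 10 genes was called higher or lower with the inhibitor. In limma's moderated test with Benjamini-Hochberg adjustment over all genes, 0 of 10 passed an adjusted p of 0.05, where 0 of all 18656 genes (0%) did, and adjusted p ranged from 0.81 to 0.98. At an unadjusted p under 0.05 there were also 0 of 10, beside 6.12% of all genes, 2.95% higher and 3.16% lower. The changes, given throughout as inhibitor minus control on the log2 scale, were positive for 5 genes and negative for 5, where 50.5% of all genes were positive, with a median of -0.00048 beside 0.0021 for all genes. The groups of arrays did not overlap for 2 of 10, TIMP3 and MMP14, both lower with the inhibitor, beside 12.9% of all genes in either direction and 7.68% in that direction. A bulk array cannot tell fewer expressing cells from less RNA per cell. The standard error (SE) of a change lay between 0.083 and 0.14. All 10 intervals of 95% lay within 1.5-fold in either direction, the widest bound being 1.44-fold for TIMP1. These intervals are not adjusted for the number of genes and hold for the mean of all probe sets of a gene.

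**Figure D1:**
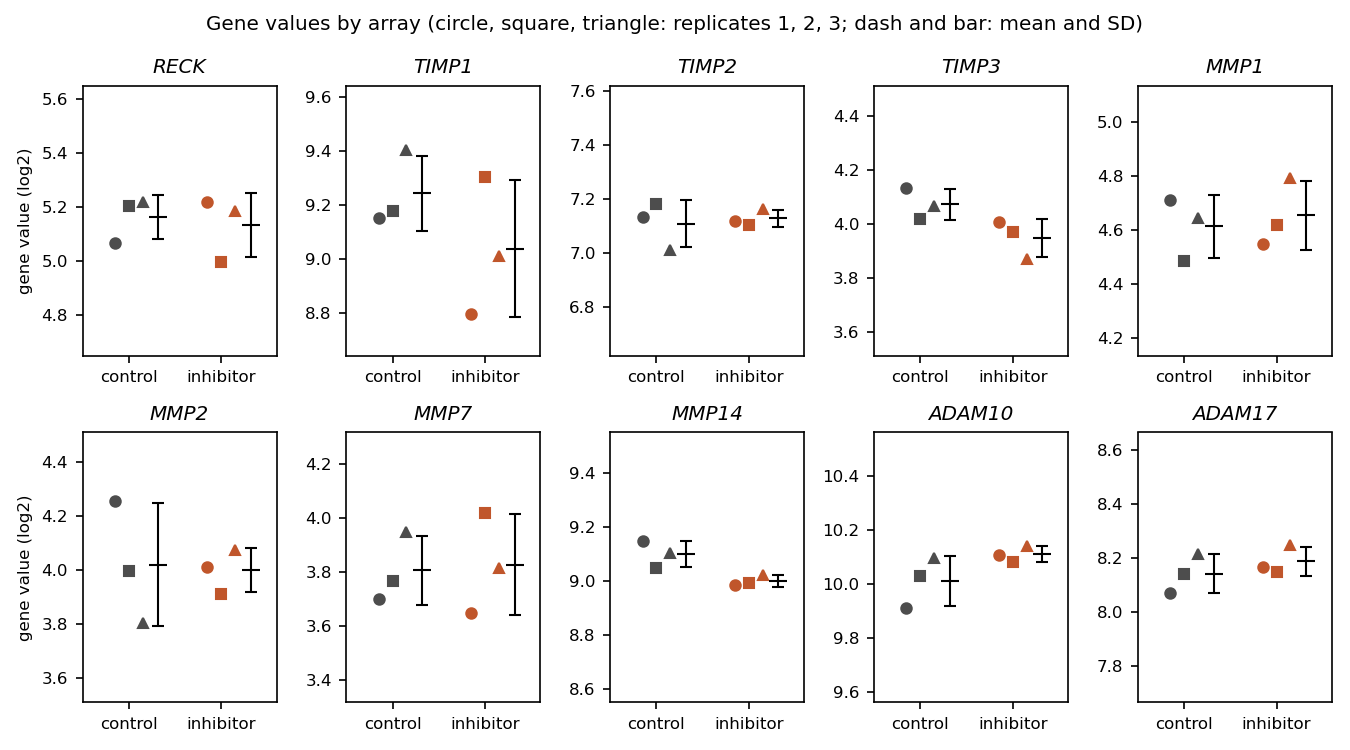
Gene value (log2, mean of the gene's probe sets) of each of the 10 genes on the 3 control arrays (grey) and the 3 inhibitor arrays (orange), with circle, square and triangle for replicates 1, 2 and 3, and a dash and bar for mean and SD. Every panel spans 1.0 log2 unit. The groups overlap in all panels except TIMP3 and MMP14.

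Olfactory receptor genes, which a gastric epithelial line has little reason to express, served as a guide to the level of silent genes. The means of 348 such genes had a median of 2.67 and a 95th percentile of 4.29. Of the 10 genes, 7 lay above that percentile, and TIMP3, MMP2 and MMP7 lay below it. Probes differ in affinity, so this is only a guide, and levels of different genes are not set against each other.

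RECK was at 5.07, 5.20 and 5.22 in control replicates 1 to 3 and at 5.22, 4.996 and 5.18 in inhibitor replicates 1 to 3. Inhibitor replicate 2 was the lowest of the 6 arrays and control replicate 1 the next, and the groups overlapped throughout. The mean went from 5.16 ± 0.082 to 5.13 ± 0.12 (SD, n = 3 each), a change of -0.030 (SE 0.098, adjusted p 0.97). The interval ran from -0.25 to 0.19, or from 0.84-fold to 1.14-fold of control. A rise of RECK above 1.14-fold in the mean of its probe sets was thus outside the interval.

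That mean joins 22 probe sets, of which 16 lay above 4.67, the 95th percentile of 476 olfactory receptor probe sets. Changes of single RECK probe sets ran from -0.88 to 0.88, with 11 positive and 11 negative. The brightest, with a mean level of 7.28, changed by 0.29 (SE 0.19, interval -0.17 to 0.76 when each gene was read by its brightest probe set alone). The median of the 22 values on each array gave -0.29 instead (SE 0.11, unadjusted p 0.027 and adjusted p 0.83 in limma). Leaving out the dimmest 30% of all probe sets gave RECK -0.10 (SE 0.10). The direction of RECK therefore turned with the summary chosen, and none of these summaries passed the adjusted threshold.

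The TIMPs, the secreted inhibitors, were not called in either direction. TIMP1, which binds most secreted MMPs and is poor against MMP14, was at 9.15, 9.18 and 9.40 in control and at 8.80, 9.31 and 9.01 in inhibitor arrays. Inhibitor replicates 1 and 3 lay below every control array, while replicate 2 lay above all but 1 of them. The change of -0.21 (SE 0.14, adjusted p 0.81) was the largest of the 10 in size, with an interval of -0.52 to 0.11. It was negative on 7 of 9 probe sets and negative under all 15 alternative settings. The range was -0.34 (without inhibitor replicate 2) to -0.085 (without inhibitor replicate 1). Settings that alter only the error estimate or the genes fitted leave a change as it is and cannot turn its sign, here and below. Among protein-coding genes of the RefSeq annotation, TIMP1 overlaps the synapsin gene SYN1, TIMP3 overlaps SYN3, TIMP2 overlaps CEP295NL and ADAM17 overlaps IAH1. MMP1 overlaps WTAPP1 and ADAM10 overlaps 5 genes, none of them protein-coding. Whether any probe set lies in an overlap, and on which strand, was not checked.

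TIMP2, which inhibits MMP2 and also takes part in its activation at the surface with MMP14, was at 7.13, 7.18 and 7.01 in control and at 7.12, 7.10 and 7.16 in inhibitor arrays. Control replicate 3 was the lowest, and all inhibitor arrays lay within the range of the control arrays. The change was 0.019 (SE 0.088, adjusted p 0.98), with an interval of -0.18 to 0.22, and its sign turned under 4 of 15 alternatives.

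TIMP3, the TIMP that stays bound to the matrix and inhibits ADAM17 as well as MMPs, was at 4.13, 4.02 and 4.07 in control and at 4.01, 3.97 and 3.87 in inhibitor arrays. Every inhibitor value was under every control value, though by only 0.010 between the nearest pair. The change was -0.12 (SE 0.088, adjusted p 0.81), with an interval of -0.32 to 0.077. The gene value hides unequal probe sets: 3 of 10 lay above the silent level, and the brightest had a mean level of 8.03 and a change of -0.030. Without the dimmest 30% of probe sets, TIMP3 changed by -0.0044.

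Among the secreted proteases, MMP1, the interstitial collagenase, was at 4.71, 4.48 and 4.65 in control and at 4.55, 4.62 and 4.79 in inhibitor arrays, with the groups interleaved. Its change was 0.041 (SE 0.10, adjusted p 0.95), and the sign turned under 3 of 15 alternatives, the brightest probe set among them. Without the dimmest 30% of probe sets the change was 0.28 (SE 0.10, interval 0.040 to 0.52). In limma that had an unadjusted p of 0.028 and an adjusted p of 0.73. With the median of probe sets the change was 0.34 (SE 0.21, adjusted p 0.83). MMP7, or matrilysin, a small epithelial protease without the hemopexin domain of its relatives, was at 3.70, 3.77 and 3.95 in control and at 3.65, 4.02 and 3.82 in inhibitor arrays. Its change was 0.022 (SE 0.12, adjusted p 0.98), and 2 of 6 probe sets lay above the silent level. Neither gene separated the groups.

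MMP2, a gelatinase whose usual source is stromal cells, was at 4.26, 3.998 and 3.80 in control and at 4.01, 3.91 and 4.08 in inhibitor arrays. The control arrays spanned the inhibitor arrays on both sides. The change was -0.020 (SE 0.12, adjusted p 0.98), with an interval of -0.30 to 0.26. Only 3 of 15 probe sets lay above the silent level, and single probe sets changed by -1.71 to 1.32. Without the dimmest 30% of probe sets the change was 0.23 (SE 0.091, interval 0.013 to 0.44). In limma that had an unadjusted p of 0.041 and an adjusted p of 0.73.

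MMP14, the membrane-anchored MMP that activates MMP2 and cuts collagen at the cell surface, was at 9.15, 9.05 and 9.10 in control and at 8.98, 8.99 and 9.02 in inhibitor arrays. Every inhibitor value was under every control value, with a gap of 0.024 between the nearest pair. The mean went from 9.10 ± 0.050 to 8.999 ± 0.021 (SD, n = 3 each), a change of -0.10 (SE 0.083, adjusted p 0.84), with an interval of -0.29 to 0.089. All 13 probe sets lay above the silent level, 8 were negative, and the change was negative under all 15 alternatives, at -0.22 to -0.076. This direction did not pass the threshold under any of them.

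ADAM10 and ADAM17 are membrane-bound sheddases. ADAM10, which RECK restrains and which cuts NOTCH receptors and E-cadherin, was at 9.91, 10.03 and 10.10 in control and at 10.11, 10.08 and 10.14 in inhibitor arrays. The inhibitor arrays lay close together and above control replicates 1 and 2, and control replicate 3 lay within them. The change was 0.098 (SE 0.089, adjusted p 0.85), with an interval of -0.10 to 0.30, and 12 of 18 probe sets were positive. ADAM17, the main enzyme for release of TNF and of several ligands of the EGF receptor, was at 8.07, 8.14 and 8.21 in control and at 8.17, 8.15 and 8.25 in inhibitor arrays. Its change was 0.045 (SE 0.087, adjusted p 0.93), positive on 13 of 22 probe sets. For both genes the groups overlapped, and both values rested in part on control replicate 1, without which ADAM10 changed by 0.048 and ADAM17 by 0.0088. Without inhibitor replicate 3 the values were 0.083 for ADAM10 and 0.015 for ADAM17.

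**Figure D2:**
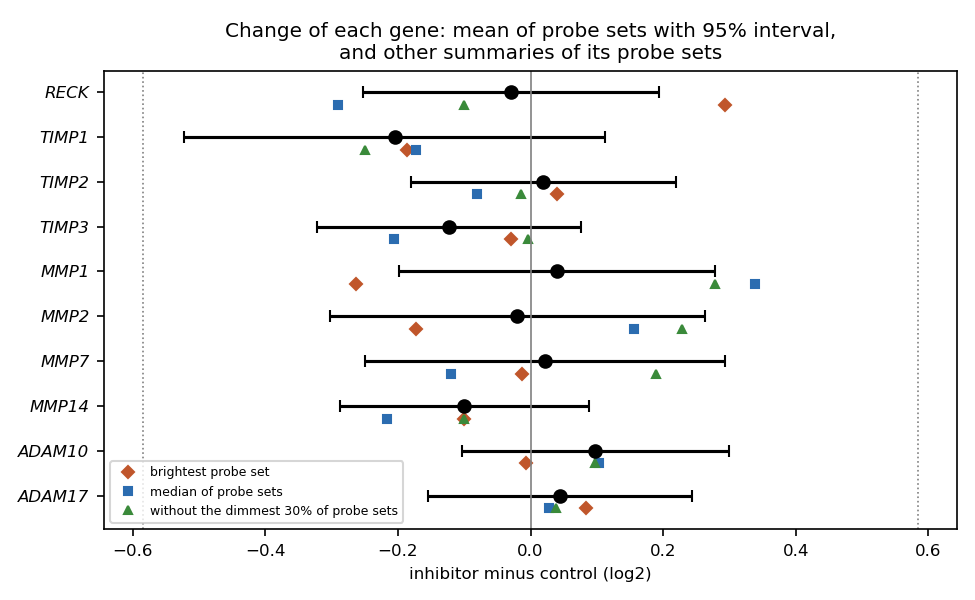
Inhibitor minus control (log2) of each gene from the mean of its probe sets (black points with 95% intervals), and from its brightest probe set, the median of its probe sets and its probe sets without the dimmest 30% (coloured symbols below). Dotted lines mark 1.5-fold. All black intervals lie between them, and the coloured symbols fall on both sides of 0 for RECK, TIMP2, MMP1, MMP2, MMP7 and ADAM10.

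Single probe sets were fitted as well, over all 224320 probe sets that name 1 gene. None of the 134 passed an adjusted p of 0.05, where 0 of all probe sets (0%) did. At an unadjusted p under 0.05 there were 7 of the 134 (5.22%), 4 higher and 3 lower, beside 6.21% of all probe sets, 3.11% higher and 3.09% lower. The groups did not overlap on 19 (14.2%), beside 12.2%. Both shares are thus close to those of all probe sets. The 7 were in MMP2 (3 probe sets), RECK, TIMP3, MMP1 and MMP14 (1 each).

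The smallest p among the 134 belonged to an MMP2 probe set, which was at 3.73, 4.10 and 3.98 in control and at 5.50, 5.19 and 5.07 in inhibitor arrays. Its change was 1.32 (SE 0.18, limma's adjusted p 0.72). Another MMP2 probe set changed by -1.71 (SE 0.59, adjusted p 0.80), from 3.17, 4.34 and 1.90 to 1.45, 1.42 and 1.40. These 2 probe sets separate the groups in opposite directions within 1 gene, at levels near or below the silent guide.

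The RECK probe set with an unadjusted p under 0.05 was at 5.72, 5.31 and 5.03 in control and at 4.95, 4.20 and 4.33 in inhibitor arrays. It was lower with the inhibitor by -0.86 (SE 0.28, adjusted p 0.80). In MMP14, the probe set that was lowest in p was at 8.33, 8.26 and 7.89 in control and at 7.62, 7.83 and 7.52 in inhibitor arrays, a change of -0.50 (SE 0.18, adjusted p 0.80). The groups did not overlap on 3 of 13 MMP14 probe sets, all lower, and on 4 of 18 in ADAM10, of which 3 were higher. Over all probe sets the share was 12.2%. ADAM17 had 2 higher and 1 lower, MMP2 1 of each, RECK 2 lower and MMP1 2 higher. TIMP3 had 1 higher, and TIMP1 and TIMP2 had 1 lower each.

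**Figure D3:**
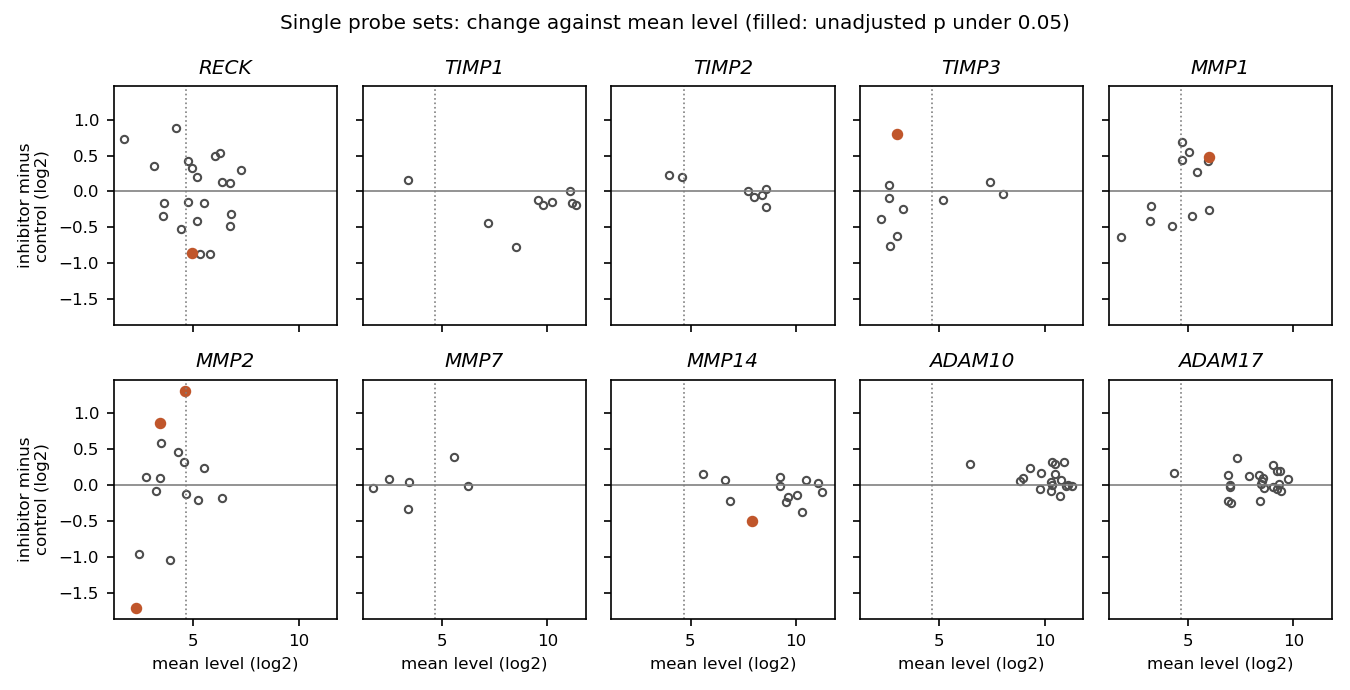
Change (inhibitor minus control, log2) of each of the 134 probe sets against its mean level over the 6 arrays (log2), with filled orange points for an unadjusted p under 0.05. The dotted line marks 4.67, the 95th percentile of olfactory receptor probe sets. Changes spread widely at dim levels, as in MMP2, and stay within -0.24 to 0.38 for ADAM17.

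Genes that work with these proteins were followed through 8 lists with 100 measured genes. Of the 100, 71 had a negative and 29 a positive change, where 49.5% of all genes were negative, and the median was -0.055 beside 0.0021 for all genes. None passed the adjusted threshold in either direction, and 6 reached an unadjusted p under 0.05, all 6 negative, beside 3.16% of all genes in that direction. That count varied with the setting. It was 1 negative and 1 positive without inhibitor replicate 3, and 3 and 1 without control replicate 1. It was 3 and 0 without control replicate 2 or inhibitor replicate 2. Without inhibitor replicate 1 it was 6 and 2, and it was 8 and 0 without control replicate 3. The brightest probe sets gave 9 and 3, the median of probe sets 4 and 2. Leaving out the dimmest 30% of probe sets gave 7 and 4. Array weights or a robust variance estimate gave 7 and 0, and the replicate block or quantile normalization 5 and 0. Equal array medians gave 4 and 0, as did leaving out the dimmest 30% of genes. In 11 of the 100 the groups did not overlap, 10 of them lower with the inhibitor, beside 7.68% of all genes in that direction. Over the alternative settings, 63 to 75% of the measured genes were negative. Epithelial marker genes leaned the same way, with 7 of 10 negative and a median of -0.054. Of these 10, 3 had no overlap on the lower side and 1 on the upper side. Endothelial markers were negative in 6 of 8, with a median of -0.029. The other marker lists did not lean this way: fibroblast markers were negative in 3 of 10 (median 0.054) and leukocyte markers in 4 of 8 (median 0.032). No list was tested against another. The 10 genes described above split 5 to 5.

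Activators of MMP precursors were negative in 11 of 12, with a median of -0.10. The examples by smallest p were PLAU, the urokinase plasminogen activator, with -0.33 (SE 0.12) from a level below the silent guide, and ST14, the epithelial serine protease matriptase, with -0.14 (SE 0.091) on 19 negative of 21 probe sets. The trypsin gene PRSS1 was positive, with 0.059 (SE 0.17), also from a level below the silent guide. PLAU had no overlap of arrays, but turned to 0.056 without the dimmest 30% of probe sets.

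Partners of ADAM10 and ADAM17 were negative in 6 of 9, with a median of -0.064. TSPAN14, a tetraspanin that carries ADAM10 to the cell surface, had the smallest p of all 100 genes. It was at 9.15, 9.12 and 9.08 in control and at 8.68, 8.83 and 8.80 in inhibitor arrays, so that the groups did not overlap. The change of -0.34 (SE 0.087, limma's adjusted p 0.79) was negative on 16 of 16 probe sets. RHBDF1, the inactive rhomboid iRhom1 that escorts ADAM17, had -0.19 (SE 0.088). TSPAN15, another ADAM10 tetraspanin, had 0.039 (SE 0.094) and FRMD8, which stabilises iRhoms, 0.050 (SE 0.14).

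Substrates of the sheddases were negative in 12 of 15, with a median of -0.056. L1CAM, a neural adhesion molecule that carcinoma cells can also express, was at 8.35, 8.17 and 8.24 in control and at 8.01, 8.0025 and 7.95 in inhibitor arrays, without overlap. Its change was -0.26 (SE 0.089, limma's adjusted p 0.79), negative on 23 of 28 probe sets. NOTCH1 had -0.17 (SE 0.092). EGF had 0.27 (SE 0.16) and TNF 0.12 (SE 0.12), both below the silent guide.

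Matrix proteins that the enzymes cut were negative in 10 of 16, with a median of -0.073. COL4A1, a basement membrane collagen chain, had -0.23 (SE 0.089) with 42 of 52 probe sets negative and no overlap, and the laminin chain LAMA5 -0.20 (SE 0.10), while COL5A1 had 0.10 (SE 0.099) and COL1A2 0.086 (SE 0.11). Genes that act with RECK in WNT7 signalling were negative in 5 of 6, with a median of -0.087. The co-receptor LRP5 had -0.20 (SE 0.087) without overlap and the ligand WNT7B -0.20 (SE 0.16), against 0.099 (SE 0.088) for WNT7A. WNT7B lay below the silent guide.

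Other members of the enzyme and inhibitor families were counted in the same way. Of 19 other MMPs, 12 were negative, with a median of -0.022, and 9 lay above the silent guide. MMP19 had -0.19 (SE 0.13) and MMP23B -0.16 (SE 0.11), against 0.27 (SE 0.22) for MMP25 and 0.19 (SE 0.14) for MMP13. Of 14 other ADAM and ADAMTS proteases, 9 were negative, with a median of -0.024. ADAMTS4, an aggrecanase, had -0.35 (SE 0.14) and ADAM15 -0.15 (SE 0.090), against 0.19 (SE 0.090) for ADAMTS15 and 0.11 (SE 0.14) for ADAMTS1. Of 9 other protease inhibitors, 6 were negative, with a median of -0.051. SERPINE2 had -0.17 (SE 0.17) and cystatin C (CST3) -0.11 (SE 0.099), against 0.23 (SE 0.15) for alpha-2-macroglobulin (A2M) and 0.040 (SE 0.096) for SLPI. Of the genes named in this paragraph, MMP13, ADAMTS4, ADAMTS15, ADAMTS1, SERPINE2 and A2M lay below the silent guide. When genes were read by their brightest probe set, the sign turned for ADAMTS4, SERPINE2, CST3, PRSS1, TSPAN15, RHBDF1, EGF, TNF, COL1A2 and LAMA5.

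**Figure D4:**
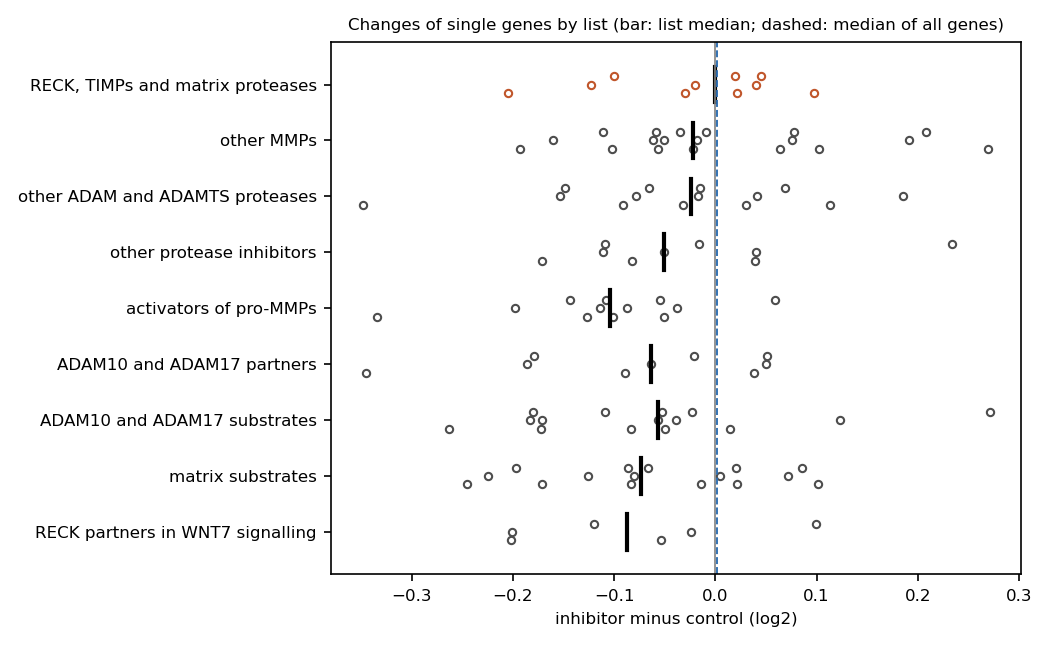
Inhibitor minus control (log2) of single genes, by list, with the list median as a black bar and the median of all 18656 genes as a dashed line. The 10 genes in the top row centre on 0, and the 8 list medians below it lie between -0.10 and -0.022.

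The genes whose profile over the 6 arrays was most like that of RECK were sought among 13232 genes above the silent guide, by the root-mean-square distance between values centred on each gene's mean. The nearest were MIGA1, a gene of mitochondrial fusion, at a distance of 0.014, the histone methyltransferase gene EZH1 at 0.016 and the ubiquitin ligase gene RNF168 at 0.018, where the median distance was 0.13. All 3 had their lowest value on inhibitor replicate 2, as RECK did, and changed by -0.046 (SE 0.096), -0.0073 (SE 0.099) and -0.026 (SE 0.10). With 6 arrays and so many genes, near profiles are a description only. The shared lowest array and the similar changes follow from choosing genes by this distance.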

How the data were processed

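The deposited table holds log2 expression values that the authors made with RMA, per the submitters' processing notes, which also name Transcriptome Analysis Console and Affymetrix Expression Console and give no versions or settings. Labelled single-stranded cDNA was made from 500 ng of RNA. Gene names of probe sets came from the platform annotation, which gives no genome build here, and a gene value was the mean log2 over every probe set that names only that gene. Symbols of other genes were updated through RefSeq (GRCh38.p14) where a synonym was unambiguous. The inhibitor and control groups were compared with lmFit and eBayes of limma 3.58.1 under R 4.3.3, with no replicate block and no filter on dim genes, and with Benjamini-Hochberg adjustment over all genes. The fit was tested in 20 simulations of arrays of 18656 genes, with 200 changed genes per simulation. It recovered 1% of genes with a log2 change of 0.3, 17.5% at 0.5, 90.0% at a log2 change of 1 and 99.4% at 2. These shares hold for that number of changed genes, which is not known for the real arrays. Array number limits the precision. The genes and lists were chosen with earlier results of these data known. The named genes were the 10 genes, up to 2 positive and 2 negative genes of smallest p in each list, and the 3 genes nearest to RECK. Other settings tried were the replicate block, each array left out, normalization, probe set summary, filters on dim probe sets or genes, variance estimate and array weights.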

Additional observations from a re-analysis of the deposited data

How the results depend on the processing

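No gene of the 10 passed the adjusted threshold under any alternative run. Calls over all genes were 0 in each direction under every alternative except leaving out 1 array, which gave 0 to 1 higher genes, the 1 without control replicate 3. The replicate block gave 0 calls (605 higher and 556 lower genes at an unadjusted p under 0.05) and no call changed with it. Arrays were treated as unpaired because the labels do not say what a replicate number shares. Deviations from the group means correlated at -0.032, -0.040 and 0.17 for arrays with the same number. For arrays with different numbers these correlations ran from -0.21 to 0.21. Signs held under every alternative for TIMP1, TIMP3, MMP14 and ADAM17. With the brightest probe set, RECK was 0.29, MMP1 -0.26, MMP7 -0.013, ADAM10 -0.0067, ADAMTS4 0.29, CST3 0.013, SERPINE2 0.81, PRSS1 -0.19, TSPAN15 -0.37, RHBDF1 0.30, EGF -0.087, TNF -0.077, COL1A2 -0.11, LAMA5 0.14 and MIGA1 0.0067. With the median of probe sets, TIMP2 was -0.080, MMP2 0.16 and MMP7 -0.12. Without the dimmest 30% of probe sets, TIMP2 was -0.015, MMP2 0.23, SERPINE2 0.81, PRSS1 -0.19, PLAU 0.056 and TNF -0.077. With array weights, TIMP2 was -0.0032, MMP2 0.015 and PRSS1 -0.0043. Leaving out 1 array gave -0.077 to 0.038 for RECK, -0.030 to 0.055 for TIMP2, -0.030 to 0.094 for MMP1, -0.13 to 0.099 for MMP2, -0.074 to 0.11 for MMP7, -0.0054 to 0.24 for ADAMTS1, -0.059 to 0.22 for PRSS1, -0.071 to 0.16 for FRMD8, -0.00090 to 0.15 for COL1A2, -0.088 to 0.023 for MIGA1, -0.054 to 0.064 for EZH1 and -0.078 to 0.060 for RNF168. Without a change of sign, the same range was 0.048 to 0.14 for ADAM10, 0.0088 to 0.081 for ADAM17, 0.053 to 0.27 for MMP13, 0.055 to 0.52 for MMP25, -0.29 to -0.076 for MMP19, -0.24 to -0.067 for MMP23B, 0.071 to 0.37 for A2M, 0.00042 to 0.11 for SLPI, -0.17 to -0.045 for CST3, -0.38 to -0.061 for SERPINE2, 0.0044 to 0.10 for TSPAN15, 0.13 to 0.44 for EGF, 0.030 to 0.22 for TNF, 0.043 to 0.18 for COL5A1 and -0.32 to -0.068 for WNT7B. The cause was not tested. The count of negative genes in the 8 lists under each alternative was added after seeing the data.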
